A study of Mus musculus with 4 samples.

Results

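Fggy, Agxt2l1 and 1700019G17Rik were the 3 genes, of 30222 gene names on the array, examined here in the spinal cord of nerve-injured mice. They were found by their gene names in the array annotation, which gave 6 of 39429 probes: 4 for Fggy, 1 for Agxt2l1 and 1 for 1700019G17Rik. The genes had been chosen by their measured values, because each differed several-fold between zeitgeber time (ZT) 10 and ZT22 and did so in the same direction in both operations. Their time differences are therefore given as a description, without a test.

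The 4 arrays came from L4 to L5 spinal slices of male ICR mice, an outbred stock, aged 5 to 6 weeks and kept with lights on at ZT0 and off at ZT12. All mice had undergone partial sciatic nerve ligation (PSL) of the right hindlimb, and tissue was taken on day 7 after the injury. Sham+PSL mice had an operation that exposed the adrenals and left them in place, and ADX+PSL mice had both adrenals removed and drank saline. Each operation was sampled at ZT10, when circulating glucocorticoid was high in sham+PSL mice according to the submitters, and at ZT22, when it had fallen. Each of the 4 conditions had 1 array and no replicate. The sources used here do not give the number of mice behind each RNA or the side of the cord. With 1 array per condition, the effect of time cannot be told apart from differences between the animals sampled. No array came from mice without ligation.

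Agxt2l1, now named Etnppl in RefSeq, encodes ethanolamine-phosphate phospho-lyase, a pyridoxal phosphate enzyme that breaks down phosphoethanolamine, an intermediate of membrane phospholipid turnover. In the central nervous system it is known as a gene of astrocytes. Fggy encodes a kinase of the FGGY carbohydrate kinase family, which phosphorylates sugars and polyols. 1700019G17Rik, now Nat8f4, belongs to the camello group of N-acetyltransferases related to Nat8. All 3 genes matched a RefSeq symbol through the transcripts that the array annotation lists.

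The 4 Fggy probes lie on the plus strand of chromosome 4 in build mm9 and span the gene, so that they measure it at separate places. In order along the gene they are at chr4:95290194-95290253, chr4:95478800-95478859, chr4:95510817-95510876 and chr4:95589618-95589677. The later ones start 189, 221 and 299 kb from the first. Probes 1 and 2 are annotated to both RefSeq transcript variants of Fggy, and probes 3 and 4 to variant 1 alone. The sequences are shown because they are the 4 separate measurements on which the Fggy result rests. Each is 60 bases long and has at least 1 forward frame without a stop codon. They share no design position and are given 5′ to 3′ as the array files list them:
Fggy probe 1: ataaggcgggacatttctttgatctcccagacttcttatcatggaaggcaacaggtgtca
Fggy probe 2: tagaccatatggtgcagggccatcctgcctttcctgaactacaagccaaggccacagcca
Fggy probe 3: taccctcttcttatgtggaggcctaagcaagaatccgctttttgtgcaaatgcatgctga
Fggy probe 4: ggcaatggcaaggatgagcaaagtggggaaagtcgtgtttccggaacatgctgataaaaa

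The G and C content of these probes was 45.0%, 55.0%, 45.0% and 46.7%, against a median of 41.7% over all probes that passed the background flag on every array. The Agxt2l1 probe is at chr3:130338517-130338576 on the plus strand, and the 1700019G17Rik probe at chr6:85849394-85849453 on the minus strand. Exon and UTR borders in mm9 were not analysed here.

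All 6 probes were flagged by the scanner software as well above background on all 4 arrays, together with 25012 probes in total. Each was read from 1 spot, and none carried an outlier, surrogate or saturation flag on any array. Levels below are the authors' normalized intensities on a linear scale. Errors are the scanner software's own spot error, which covers the measurement of a spot and not the spread between animals.

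Agxt2l1 was high at ZT10 and low at ZT22 in both operations. In sham+PSL the level was 1540 at ZT10 and 158 at ZT22. In ADX+PSL it was 2101 at ZT10 and 300.2 at ZT22. The spot error of these levels was at most 10.3%. Both ZT10 arrays thus lay above both ZT22 arrays, from which nothing is read because the time contrast chose the genes. The level at ZT10 was 9.73-fold that at ZT22 in sham+PSL, a log2 difference of 3.28 ± 0.21 (spot error). In ADX+PSL it was 7.00-fold, a log2 difference of 2.81 ± 0.21.

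Of the 25012 probes, those higher at ZT10 by at least 2-fold made up 0.800% in sham+PSL and 0.464% in ADX+PSL. Higher in both were 13 probes, or 0.0520%, with Agxt2l1 among them. Nothing is read from this count, since the contrast chose the genes.

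Fggy was low at ZT10 and high at ZT22 on all 4 probes. On probe 1 the sham+PSL level was 15.98 at ZT10 and 230.3 at ZT22, and the ADX+PSL level 27.5 and 257. On probe 2 the levels in the same order were 21.6, 327, 65.2 and 373. Both probes annotated to both transcript variants thus had their lowest level on the sham+PSL array of ZT10. On probe 3 the levels were 20.2, 667, 107.5 and 726. On probe 4 they were 28.0, 1111, 163.5 and 1333. On every probe both ZT10 arrays lay below both ZT22 arrays, an order that the choice of the genes favoured. The spot error was 16.6% to 21.1% of the level on the sham+PSL array of ZT10 and at most 14.0% on the others.

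The log2 difference of ZT10 minus ZT22 for Fggy in sham+PSL was -3.85 ± 0.34, -3.92 ± 0.30, -5.05 ± 0.33 and -5.31 ± 0.28 from probe 1 to probe 4. These correspond to levels 14.4-, 15.1-, 33.1- and 39.7-fold lower at ZT10. In ADX+PSL the log2 difference was -3.23 ± 0.25, -2.52 ± 0.22, -2.76 ± 0.21 and -3.03 ± 0.21, or 9.37-, 5.72-, 6.75- and 8.15-fold lower. The sham+PSL levels at ZT10 were close to the limit of detection, since the lowest level called well above background on that array was 14.9. On the other arrays this lowest level was 18.4 (sham+PSL, ZT22), 12.8 (ADX+PSL, ZT10) and 22.2 (ADX+PSL, ZT22).

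1700019G17Rik was also lower at ZT10, and its levels were nearly the same in both operations. In sham+PSL they were 58.9 at ZT10 and 332 at ZT22. In ADX+PSL they were 56.0 at ZT10 and 324 at ZT22. The spot error of these levels was at most 11.7%. The ZT10 arrays again lay below the ZT22 arrays. Nothing is read from this order for any member, since the time contrast chose the genes. The share of all probes with such an order was not counted. The level was 5.64-fold lower at ZT10 in sham+PSL (log2 difference -2.49 ± 0.22) and 5.79-fold lower in ADX+PSL (-2.53 ± 0.22). Probes at least 2-fold lower at ZT10 made up 0.932% of all in sham+PSL and 0.816% in ADX+PSL, and 33 probes or 0.132% were so in both. The 4 Fggy probes and the 1700019G17Rik probe were 5 of these 33.

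**Figure D1:**
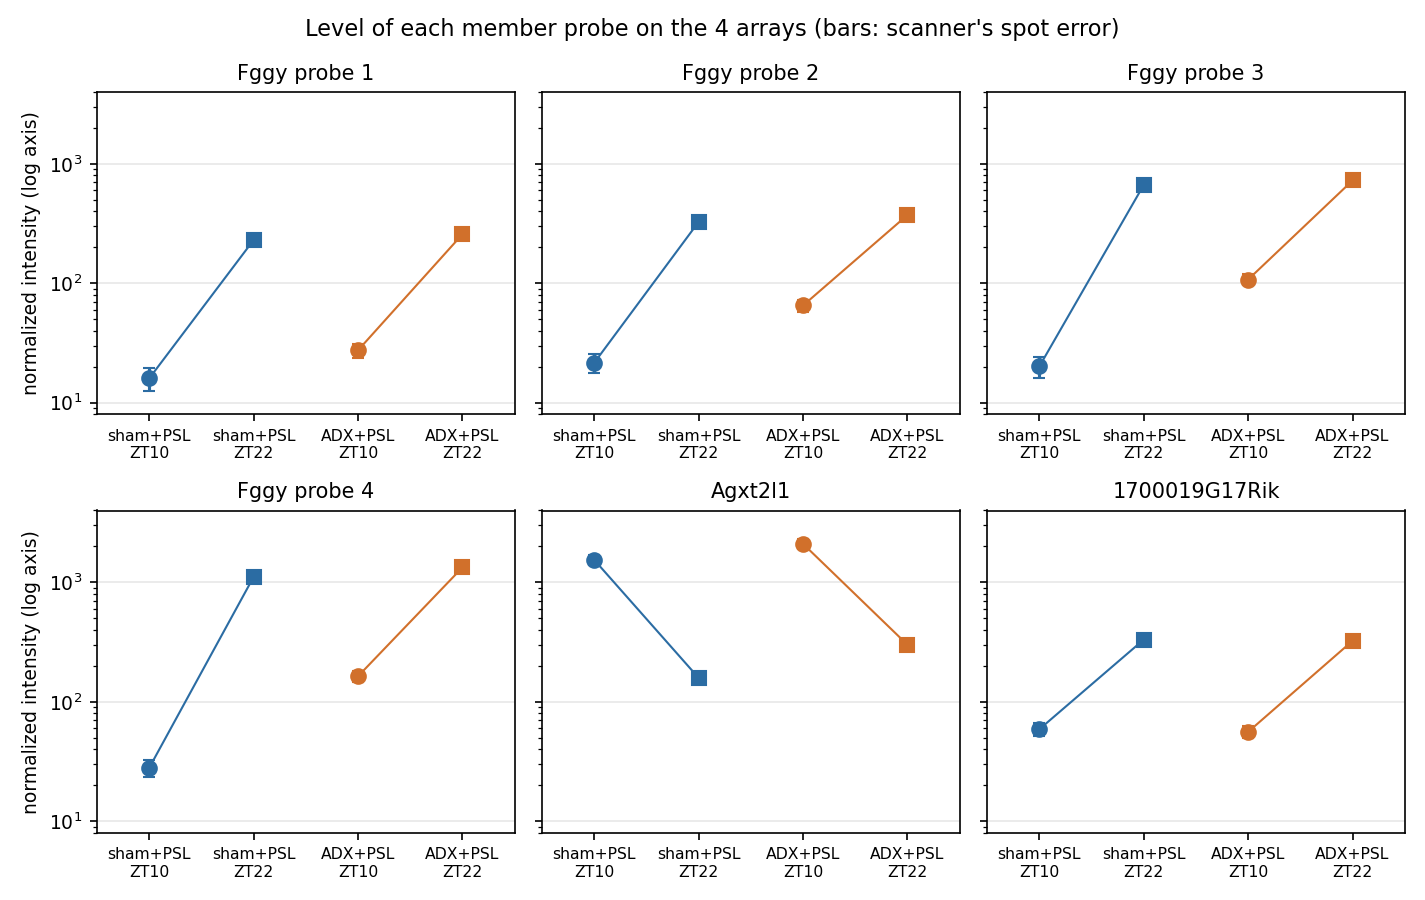
Normalized intensity (log axis) of each of the 6 probes on the 4 arrays, 1 point per array, with bars for the scanner's spot error; lines join the arrays of 1 operation. The Fggy and 1700019G17Rik probes are lower at ZT10 in both operations, Agxt2l1 is higher, and the ZT10 point of Fggy is lower in sham+PSL than in ADX+PSL on all 4 probes.

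Across the array, 73 probes differed at least 2-fold with time in both operations, with the same sign for 46 of them and opposite signs for 27. Over all probes the median absolute log2 time difference was 0.15 (sham+PSL) and 0.14 (ADX+PSL). Ranked by the smaller of their absolute differences in the operations, the 6 probes took places 2, 4 and 6 to 9 of the 46. Just inside the 2-fold limit were Igfbp4 (log2 difference -1.14 in sham+PSL and -1.0004 in ADX+PSL) and Slfn10-ps (-1.02 and -1.60). Just outside were a probe of Tfpi (-0.99 and -1.47) and 1190002F15Rik (-1.15 and -0.98).

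**Figure D2:**
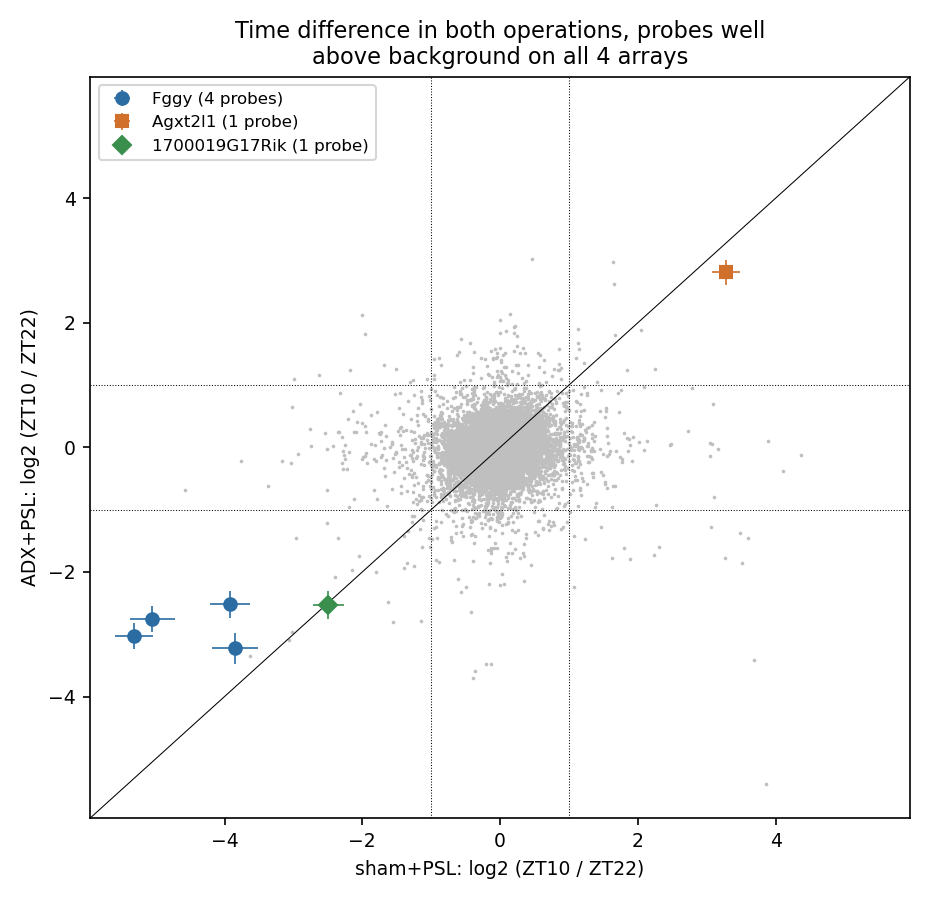
Time difference (log2 of ZT10 over ZT22) of sham+PSL on the x axis and of ADX+PSL on the y axis for 25012 probes that passed the background flag on all 4 arrays, with the members coloured, bars for their spot error, dotted lines at the 2-fold limits and the line of equal differences. 1700019G17Rik and Agxt2l1 lie near the line of equal differences, and the 4 Fggy probes lie to its left, with larger differences in sham+PSL.

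The members differed in how the operations compared. For Fggy at ZT10, the level was higher in ADX+PSL than in sham+PSL on 4 of 4 probes, by 1.72-, 3.01-, 5.33- and 5.84-fold from probe 1 to probe 4. The log2 differences were 0.78 ± 0.37, 1.59 ± 0.30, 2.42 ± 0.33 and 2.55 ± 0.28. Each exceeded its spot error. The difference at probe 2 exceeded that at probe 1 by more than their errors, and the values of probes 3 and 4 lay within their errors of each other. At ZT22 the same log2 differences were 0.16 ± 0.21, 0.19 ± 0.21, 0.12 ± 0.20 and 0.26 ± 0.20, of which the first 3 were smaller than their spot errors. Fggy probes 2, 3 and 4 were at least 2-fold higher in ADX+PSL at ZT10, as were 0.624% of all probes, and none was at ZT22, as were 0.740%.

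The time difference of Fggy was accordingly larger in sham+PSL than in ADX+PSL, by 0.62 ± 0.42, 1.40 ± 0.37, 2.29 ± 0.39 and 2.28 ± 0.35 on the log2 scale along the gene. With 1 array per condition this difference could not be tested. It rests on levels of 15.98 to 28.0 on the sham+PSL array of ZT10, and its size depended on the background correction. The log2 operation difference of probe 1 at ZT10 fell from 0.78 to 0.19, and that of probe 4 from 2.55 to 1.23, when the mean spot signal was used without background correction.

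**Figure D3:**
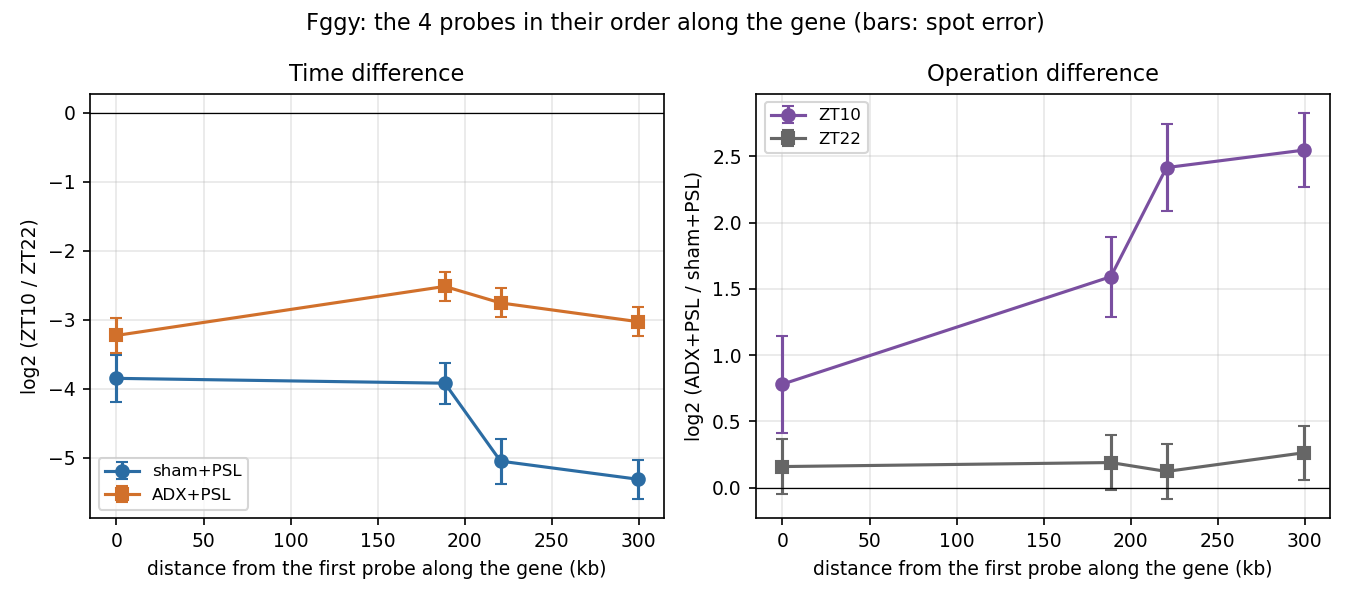
The 4 Fggy probes by their distance from the first probe along the gene (kb), with the time difference (log2 of ZT10 over ZT22) of each operation on the left and the log2 ratio of ADX+PSL to sham+PSL at each time on the right; bars are spot errors. The operation difference at ZT10 is 0.78 at the first probe and 2.55 at the last, and that at ZT22 stays between 0.12 and 0.26.

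Agxt2l1 was higher in ADX+PSL at both times, by 1.36-fold at ZT10 (log2 difference 0.45 ± 0.20) and 1.90-fold at ZT22 (0.92 ± 0.21), and neither reached 2-fold. For 1700019G17Rik the log2 differences were -0.07 ± 0.24 at ZT10 and -0.04 ± 0.21 at ZT22, both within the spot error. No member probe was at least 2-fold lower in ADX+PSL, against 1.12% of all probes at ZT10 and 0.996% at ZT22.

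The operation effect averaged over both times was the contrast that had not chosen the genes. It was tested in limma's additive fit of operation and time, with 1 residual degree of freedom and Benjamini-Hochberg adjustment over 25012 probes. The residual was the difference between the time differences of the operations, so the error came from the contrasts that chose the genes. For the Fggy probes this difference ran from 0.62 to 2.29 on the log2 scale, and their SE and p-values reflect it. None of the 6 probes passed an adjusted p of 0.05, and 13 of all probes, or 0.0520%, did. The mean log2 difference of ADX+PSL minus sham+PSL for Agxt2l1 was 0.69 ± 0.16 (SE; limma adjusted p = 0.38). For the Fggy probes it was 0.47 ± 0.19, 0.89 ± 0.33, 1.27 ± 0.52 and 1.40 ± 0.51, with limma adjusted p between 0.55 and 0.60. For 1700019G17Rik it was -0.05 ± 0.13 (limma adjusted p = 0.99). Without adjustment, 3 of the 6 had a limma p under 0.05 (Agxt2l1 and Fggy probes 2 and 4), as did 2143 of all 25012 probes. Fggy probes 2 and 4 read 1 gene on the same arrays and are not separate calls. Nothing is read from this count, since the error came from the contrasts that chose the genes. The adjusted p does not show that the levels were alike, since the fit had a single residual degree of freedom.

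Genes with the most similar pattern were sought by the Euclidean distance between the 4 log2 levels, each centred on its own probe's mean, over all probes that passed the background flag on every array. For Fggy probe 4 the nearest was the transcript cluster TC1586156 at a distance of 1.25, with levels of 48.0, 595, 173.5 and 1770 in the order sham+PSL at ZT10 and ZT22, then ADX+PSL at ZT10 and ZT22. ENSMUST00000134226 (1.59), AK133106 (1.63), ENSMUST00000102968 (2.28) and 1700019G17Rik (2.49) followed. Of these, ENSMUST00000102968 had log2 time differences of -3.75 in sham+PSL and only -0.22 in ADX+PSL. The Fggy probes themselves were between 0.30 (probes 3 and 4) and 1.40 (probes 1 and 4) from each other. The closest other gene to probe 4 was thus nearer to it than Fggy probe 1 was.

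For Agxt2l1 the nearest was Plin4, which encodes a perilipin that coats lipid droplets, at a distance of 1.18. Its levels were 277, 89.3, 637 and 81.0. Lrrtm4 (1.23), 1700025G04Rik (1.27), Mtch2 (1.32) and Cyp4f15 (1.53) followed. For 1700019G17Rik the nearest was Gin1, the gene of a retrotransposon-derived integrase, at a distance of 0.35 and with levels of 44.2, 233, 51.2 and 216. 5033404E19Rik (0.47), Zfp944 (0.83), 4930545H06Rik (0.86) and the microglial receptor gene Fcrls (0.96) followed.

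The other probes of several of these genes did not share the pattern. The second Gin1 probe had log2 time differences of -0.09 (sham+PSL) and 0.44 (ADX+PSL), against -2.40 and -2.08 on the probe like 1700019G17Rik. The other Mtch2 probes had 0.13 and 0.00 in sham+PSL and -0.15 and -0.13 in ADX+PSL. The second probe of 1700025G04Rik had 0.22 and 0.49, and a second Lrrtm4 probe well above background on all arrays had 0.29 and 0.29. The sham+PSL values of the other 4 Zfp944 probes ran from -0.16 to 1.097 and their ADX+PSL values from -0.39 to 0.58. The second TC1586156 probe did share the direction, with -2.49 and -2.59, and so did the second ENSMUST00000134226 probe, with -6.23 and -3.96 and well above background on 3 of 4 arrays. Other probes of Gin1 and Mtch2, and some of Zfp944, thus differed in sign from the similar probe in sham+PSL or ADX+PSL. The named second probes of 1700025G04Rik and Lrrtm4 kept the sign with smaller differences. The 4 Fggy probes had the same direction throughout, but Fggy was chosen by these values and the other genes were named for a single probe. Agxt2l1 and 1700019G17Rik have 1 probe each, so the same comparison could not be made for them.

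The genes around each member were compared by the position of their probes. Within 1 Mb of the Fggy probes, 17 probes of 14 other gene names were well above background on all arrays. The nearest were Hook1, 73.8 kb beyond the last Fggy probe, with log2 time differences of -0.04 (sham+PSL) and 0.27 (ADX+PSL), and on the other side Jun, 573 kb away, with -0.46 and -0.10. None of the 17 changed 2-fold in the same direction in both operations. Cyp2j7-ps, a cytochrome P450 pseudogene 272 kb away, differed in opposite directions (-1.96 and 1.82).

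Around Agxt2l1, none of 28 probes of 21 gene names differed 2-fold in either operation, and their log2 differences ranged from -0.57 to 0.27 in sham+PSL and from -0.65 to 0.36 in ADX+PSL. The nearest were Col25a1 at 36.8 kb (0.13 and -0.32) and Ostc at 67.8 kb (-0.09 and 0.03). Around 1700019G17Rik, 51 probes of 37 gene names were measured, and 3 differed 2-fold in sham+PSL and none in ADX+PSL. The nearest were its relatives Cml1 at 10.8 kb (0.34 and 0.24) and Nat8 at 68.9 kb (-0.40 and 0.24). The 3 were ENSMUST00000162660 (1.73 and 0.57), the camello gene Cml5 (-1.23 and 0.14) and LOC100504710 (-1.30 and -0.12). The direction of the members was thus not shared at 2-fold in both operations by any measured probe within 1 Mb. Nothing is read from this, since only 0.132% of all probes were lower and 0.0520% higher at ZT10 in both.

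**Figure D4:**
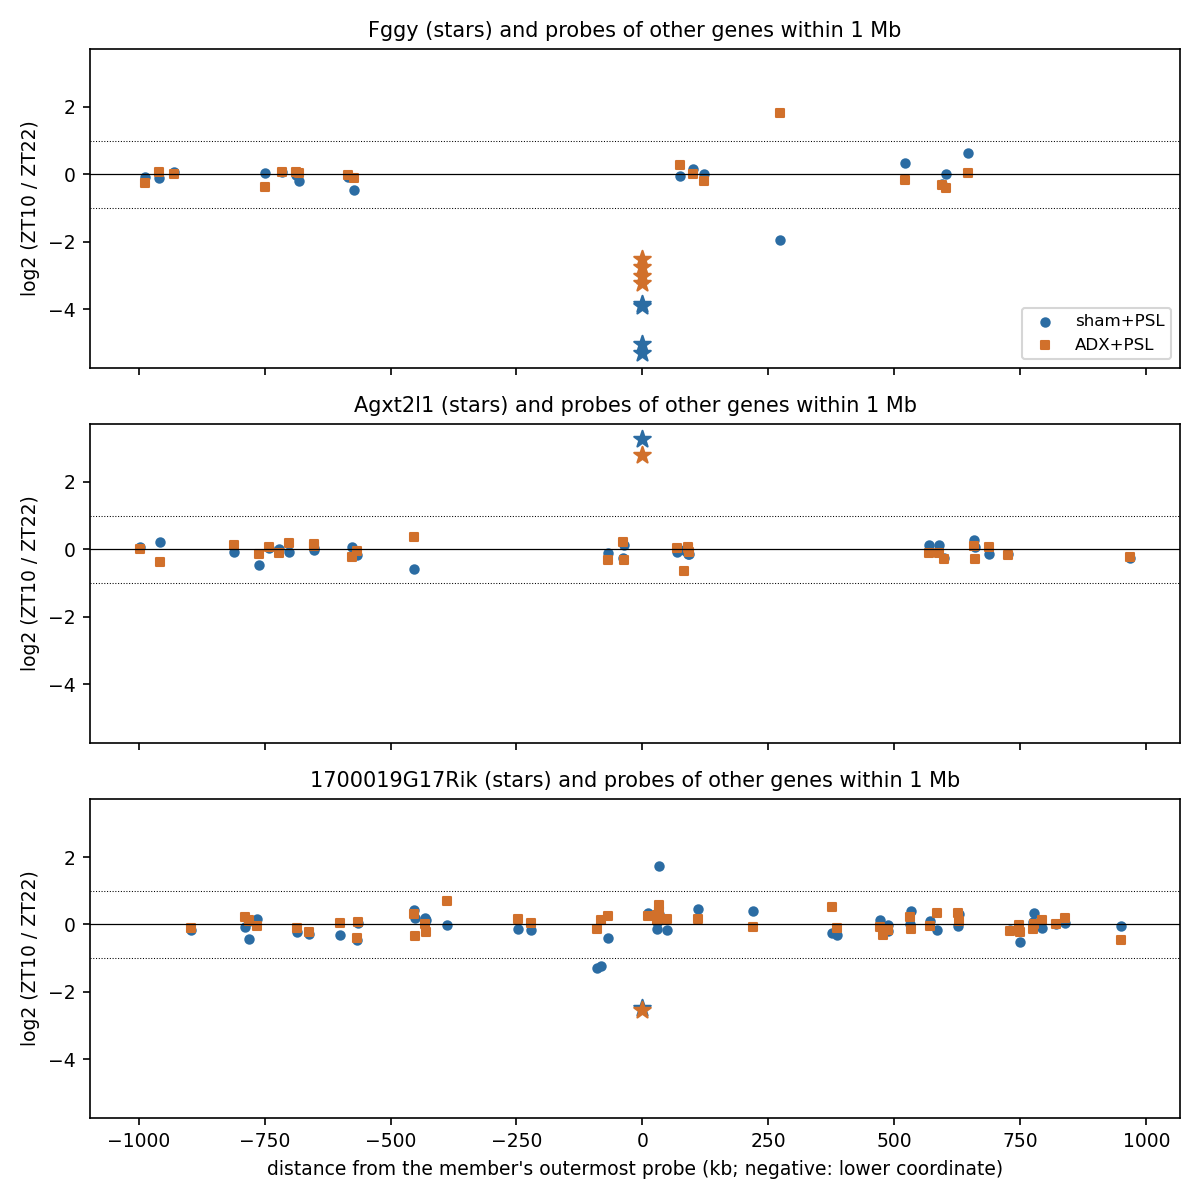
Time difference (log2 of ZT10 over ZT22) for sham+PSL (blue circles) and ADX+PSL (orange squares) of probes of other genes within 1 Mb of each member, by distance (kb) from its outermost probe; stars are the member's own probes, placed at 0, and dotted lines mark 2-fold. Of the neighbours, 1 near Fggy and 3 near 1700019G17Rik pass 2-fold in an operation, none in the same direction in both.

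Genes that act beside the members were taken from lists, each gene on its probe of highest mean level. Of 48 such genes on the array in 5 lists, 42 were well above background on all arrays. Of these 2 differed at least 2-fold with time in sham+PSL, none in ADX+PSL and none in both. Over all probes, 0.132% were lower and 0.0520% higher at ZT10 in both operations. A count of none in both, here or in a list below, is thus near the share of all probes. Among the genes of ethanolamine phosphate and phospholipid metabolism, 0 of 18 differed 2-fold in either operation. Their median log2 time difference was 0.01 (sham+PSL) and -0.10 (ADX+PSL). Pcyt2, the enzyme that makes CDP-ethanolamine, had -0.15 and 0.03, and Ptdss1, a phosphatidylserine synthase, 0.15 and -0.15. Pisd, the decarboxylase that makes phosphatidylethanolamine, had -0.30 and 0.32, and Ptdss2 0.44 and 0.09.

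Of the related aminotransferases, 3 of 4 were measured on all arrays and 0 differed 2-fold, with Abat, the GABA transaminase, at 0.07 and 0.22, Oat, the ornithine aminotransferase, at -0.03 and 0.01, and Agxt2l2, the close relative of Agxt2l1, at -0.05 and -0.29. Of the other FGGY kinases, 4 of 6 were measured and 0 differed 2-fold. Xylb, the xylulokinase, had 0.06 and -0.13, and the glycerol kinase Gyk 0.07 and -0.26. Gk5 had 0.06 and -0.38, and Shpk, the sedoheptulokinase, 0.17 and -0.15. Over all probes, 0.932% were at least 2-fold lower and 0.800% higher at ZT10 in sham+PSL. In ADX+PSL these shares were 0.816% and 0.464%, so nothing is read from the absence of such a difference in the measured family members of Fggy.

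Of the pentose and polyol enzymes, 13 of 15 were measured and Dcxr, the L-xylulose reductase, differed 2-fold, with a log2 difference of 2.13 (sham+PSL) and 0.11 (ADX+PSL). The pentose phosphate enzymes Taldo1 (-0.13 and -0.07), Tkt (0.09 and 0.19) and Rpia (-0.38 and 0.65) did not. Of the Nat8 family, 4 of 5 were measured, of which Cml5 was lower at ZT10 in sham+PSL as above. Nat8l, the synthase of N-acetylaspartate, had 0.24 and -0.29.

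Clock genes were compared between the same arrays. Of 19 measured clock genes, sham+PSL had 1 at least 2-fold higher at ZT10, ADX+PSL had 1 at least 2-fold lower, and none was so in both. Nr1d1, a repressor of the clock, had 1.02 in sham+PSL and -0.75 in ADX+PSL. Dbp, an output factor, had 0.49 and -1.04. Both thus had opposite signs in the operations. Arntl had 0.06 and 0.34, Clock -0.06 and 0.21, Per1 0.50 and 0.41, Per2 0.12 and -0.30, Per3 -0.29 and -0.25, Nr1d2 0.32 and 0.10, Tef 0.05 and 0.17, and Ciart (Gm129) 0.58 and -0.47. Npas2 was well above background on 2 of 4 arrays. Per1 and Per3, among others, kept one direction in both operations, with differences smaller than those of the members. Nothing is read from this, since the members were chosen by their time differences. Over all probes, only 0.132% were at least 2-fold lower and 0.0520% higher at ZT10 in both operations.

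Of 21 genes of the glucocorticoid response, sham+PSL had 4 at least 2-fold higher at ZT10 and 1 lower. ADX+PSL had 4 higher, and 2 were higher in both. Over all probes, 0.800% were higher and 0.932% lower in sham+PSL, 0.464% were higher in ADX+PSL and 0.0520% were higher in both. The median log2 time difference of the 21 genes was 0.41 in each operation. The 2 were Plin4 (1.63 and 2.97), the gene nearest in pattern to Agxt2l1, and Sult1a1, a sulfotransferase (1.14 and 1.57). Hif3a had 2.78 and 0.95, Mt1 0.34 and 1.03, and Mt2 0.41 and 1.32, the last 2 being metallothioneins. Sgk1, the serum- and glucocorticoid-induced kinase, had 1.15 and 0.34, Fkbp5 0.33 and 0.37, and Tsc22d3 0.23 and 0.27. Differences at ZT10 thus also occurred in ADX+PSL mice within this list. The list was chosen with earlier results of these data known, so nothing more is read from its counts.

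**Figure D5:**
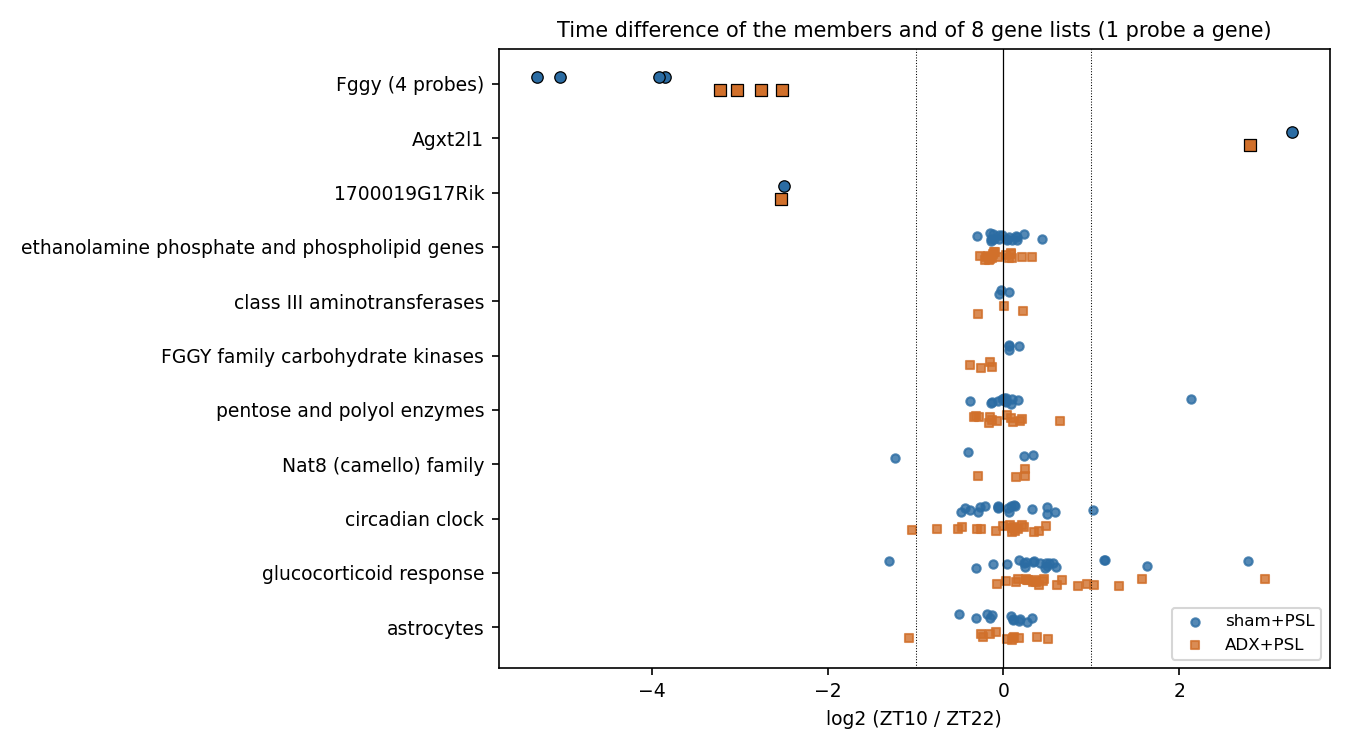
Time difference (log2 of ZT10 over ZT22) for sham+PSL (blue circles) and ADX+PSL (orange squares) of the members (outlined) and of the genes of 8 lists that were well above background on all arrays, 1 probe per gene, with dotted lines at 2-fold. The members lie outside the 2-fold lines in both operations, as do 2 genes of the glucocorticoid response and none of the other lists shown.

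The tissue was checked by markers of its cells. All 12 astrocyte, 10 neuronal, 8 oligodendrocyte and 8 microglial genes were well above background on all arrays. Beside Agxt2l1, an astrocyte gene, the summed level of the astrocyte list ranged from 339105 to 373681 over the arrays, a 1.102-fold range. Aldoc had log2 time differences of 0.19 and 0.38, S100b -0.31 and -0.15, Gfap -0.16 and -1.07, and Aqp4 -0.50 and -0.26. The median over all 12 genes was 0.10 (sham+PSL) and 0.07 (ADX+PSL), so the lower values named here do not stand for the list. Agxt2l1 changed 7.00- to 9.73-fold, and the summed astrocyte markers had ratios of ZT10 to ZT22 of 1.03 (sham+PSL) and 1.102 (ADX+PSL). This sum is weighted to its brightest genes, Aldoc and S100b, and does not show the lower Gfap and Aqp4 at ZT10. The part of astrocyte content in the Agxt2l1 difference was not tested. In such bulk tissue, fewer cells of a type and less RNA per cell cannot be told apart.

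The neuronal sum ranged 1.17-fold over the arrays, with Nefh at 0.16 and 0.15, Nefl at 0.14 and 0.17, Nefm at 0.41 and 0.29 and Slc6a5 at 0.29 and 0.09. Of the oligodendrocyte genes, Mag had -0.06 and -0.22, Opalin -0.78 and -0.51 and Mog -0.40 and -0.26. Others went the other way in ADX+PSL, with Mbp at -0.13 and 0.42, Mobp at 0.05 and 0.49 and Cldn11 at -0.18 and 0.14. The median of the list was -0.16 and -0.08, and its sum had ratios of ZT10 to ZT22 of 0.94 and 1.02. The microglial sum was lower at ZT10, at 0.79 times (sham+PSL) and 0.93 times (ADX+PSL) the ZT22 level. There Itgam had -0.26 and 0.01, Csf1r -0.38 and -0.25, Aif1 -0.46 and -0.64, and C1qa -0.49 and -0.40. On the probe of highest mean level, no gene of these lists differed 2-fold in both operations. A second Itgam probe did, with -1.25 and -1.11.

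The arrays differed in markers of blood, muscle and meninges. The summed level of the 6 red blood cell genes was 18767 on the sham+PSL array of ZT22 and between 89810 and 135912 on the others, and was 7.24-fold higher at ZT10 in sham+PSL and 1.06-fold in ADX+PSL. Hba-a1 (3.08 and 0.06), Hba-a2 (2.73 and 0.26), Hbb-b1 (3.05 and -0.15) and Hbb-b2 (3.10 and -0.80) led it. Of the 6 skeletal muscle genes, 2 were well above background on every array, and the sum of the 6 was 1726 on the sham+PSL array of ZT10 and 113 to 141 on the others, with Tnnc2 at 4.11 and -0.37, Acta1 at 1.17 and 0.22 and Mylpf below background throughout. The meningeal fibroblast sum was 15168 to 17679 in sham+PSL and 5359 to 5634 in ADX+PSL, with Dcn at 0.17 and -0.19, Col1a2 at 0.27 and -0.11, Lum at 1.18 and -0.76 and Mgp at 0.58 and 0.77. Of the 5 Schwann cell and nerve root genes, 2 were measured on all arrays, Pmp22 (-0.22 and -0.31) and Prx (0.92 and 0.17). The sum of the 5 ranged 1.40-fold, but it is weighted to its brightest gene, Pmp22. Between the operations, the log2 difference of ADX+PSL minus sham+PSL for Prx was -3.51 at ZT10 and -2.77 at ZT22. For Pmp22 it was -0.21 and -0.11. The blood, muscle, meningeal and Schwann cell sums had ratios of ZT10 to ZT22 of 7.24, 12.2, 1.17 and 0.88 in sham+PSL. In ADX+PSL these ratios were 1.06, 1.04, 0.95 and 0.81, with single genes of a list moving in opposite directions, such as Lum and Mgp. The part of these markers in the time differences of the members, or in the larger Fggy difference of sham+PSL, was not tested.

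Sequences before the annotated starts were searched because the members differed with time. RefSeq (GRCm38.p6) promoters, 2 starts for each member, were searched in the 250 bases before the start on both strands for the E-box CACGTG, its variant CACGTT, the D-box TTANGTAA, the ROR element core AGGTCA and the glucocorticoid receptor hexamer AGAACA. These were held by 6.02%, 3.85%, 2.06%, 14.0% and 16.1% of 32851 promoters of the same length. No searched motif was found before the Agxt2l1 starts or the first Fggy start. The D-box letters stood 67 bases before the second Fggy start, and the ROR core letters before both 1700019G17Rik starts, 244 and 51 bases upstream, all on the reverse strand. A match is a description of letters and not a binding site. The pair of sequences that hold the match nearest to a start are shown with the motif in capitals, the first from chr4:95579171-95579420 on the plus strand and the other from chr6:85902534-85902783 on the minus strand:
Fggy, second start: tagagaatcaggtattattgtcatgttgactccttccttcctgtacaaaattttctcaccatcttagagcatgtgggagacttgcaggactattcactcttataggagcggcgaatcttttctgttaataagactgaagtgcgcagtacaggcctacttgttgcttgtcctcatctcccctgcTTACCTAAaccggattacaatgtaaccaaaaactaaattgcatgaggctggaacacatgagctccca
1700019G17Rik (Nat8f4), second start: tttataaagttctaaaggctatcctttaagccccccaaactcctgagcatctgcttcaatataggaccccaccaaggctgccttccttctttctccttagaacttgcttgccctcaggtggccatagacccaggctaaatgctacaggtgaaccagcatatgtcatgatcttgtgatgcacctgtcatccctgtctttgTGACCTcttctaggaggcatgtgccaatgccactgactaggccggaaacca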

How the data were processed

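Total RNA of spinal slices was labelled with Cy3 and hybridized to 1-colour 44K Agilent 60-mer arrays, 4 on 1 slide. Per the labels, intensity was read with Feature Extraction 9.5.1.1; the file headers give 10.7.1.1 and probe positions in mm9. The deposited table holds the authors' quantile-normalized intensity on a linear scale: its sorted columns were equal within 0.0357%, and its log2 values correlated at 0.9994 to 0.9999 with the processed signals of the same array. Flags and spot errors were taken from the deposited scanner files. A spot error on the log2 scale was the processed signal error over the signal and ln 2, combined over both arrays of a difference. Between 65.1% and 70.1% of probes were well above background on an array. With no replicates, precision is set by there being 1 array a condition.

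The operation effect was fitted in limma 3.58.1 (R 4.3.3) on log2 of the table, over 25012 probes, and checked on simulated data. The list genes named were those at least 2-fold different in both operations, the 2 with the highest mean level and the 2 with the largest mean absolute time difference among genes well above background on all arrays, plus fixed clock and glucocorticoid genes; neighbours were the nearest on each side, and similar genes the 5 nearest. Other genes were named for their values. A gene that this rule names is not reported here. Members and lists were chosen with earlier results of these data known. Alternatives were quantile normalization made here over 4 arrays or per operation, a 75th percentile shift, no normalization, normexp background correction with an offset of 50, mean signal without correction, other background filters, limits of 1.5- and 4-fold, and an intensity trend in limma.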

Additional observations from a re-analysis of the deposited data

How the results depend on the processing

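All 6 member probes differed at least 2-fold with time, in the same direction in both operations, under each of the 10 alternatives run for that count, including the 4-fold limit. The looser background filters and the 1.5-fold limit could not drop a probe that had already passed. The 4-fold result follows from the smallest member difference, 2.49 on the log2 scale. Only the normalization and background settings could have changed this count. Under the 4 alternatives that changed the normalization alone, every member value moved by less than its spot error. The background correction moved them. With normexp correction, the log2 time difference in sham+PSL became -1.95, -2.27, -3.15 and -3.64 for Fggy probes 1 to 4, 2.82 for Agxt2l1 and -1.74 for 1700019G17Rik. In ADX+PSL it became -1.83, -1.71, -2.19, -2.67, 2.58 and -1.67 in the same order, and the mean operation difference of the Fggy probes 0.17, 0.42, 0.60 and 0.78. With the mean signal uncorrected, the values were -1.79, -2.12, -3.01, -3.55, 2.78 and -1.61 in sham+PSL, -1.70, -1.68, -2.13, -2.62, 2.56 and -1.63 in ADX+PSL, and 0.14, 0.35, 0.56 and 0.76 for the operation. By construction, both settings leave a constant in dim signals. In an alternative chosen after seeing the data, the Fggy operation difference at ZT10 stayed above 0 under all 6 settings of normalization and background. It was 0.19 to 0.93, 0.57 to 1.69, 0.995 to 2.49 and 1.23 to 2.60 for probes 1 to 4. For probe 1, the values with normexp (0.23) and with the mean signal (0.19) were smaller than the spot error of 0.37. All 6 settings used the same spots, so nothing is read from the unchanged sign. For 1700019G17Rik the operation difference changed sign between settings, within -0.06 to 0.07 at ZT10.

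The 46 probes with the same direction became 21 with either of these background settings, 345 without a background filter, 244 with the flag needed on 1 array only, 226 at 1.5-fold and 11 at 4-fold. The 13 probes past the limma threshold for the operation became 96 without normalization, 80 with normexp and 91 with the mean signal. They became 60 with an intensity trend and 0 with that looser flag. No member probe passed in any of the 9 fits run. Of the member probes, 1 to 5 had an unadjusted limma p under 0.05. Nothing is read from that range, since the error again came from the contrasts that chose the genes. The cause of these shifts in count was not tested. Leaving out an array was not run, because each condition had 1 array and the fit would keep no residual degree of freedom. No paired analysis was possible because each condition had 1 array. Low signal limits Fggy at ZT10 in sham+PSL most, at 15.98 to 28.0 where the lowest detected level was 14.9.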
